A study of Mus musculus with 12 samples.

Results

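The 10 genes described here lie on the route from the insulin receptor to the entry of glucose into the muscle fibre. They are the receptor gene Insr, the docking protein genes Irs1 and Irs2, the PI3K regulatory subunit gene Pik3r1, the kinase genes Akt1 and Akt2, the Rab regulator genes Tbc1d1 and Tbc1d4, and the glucose transporter genes Slc2a4 (GLUT4) and Slc2a1 (GLUT1). They were taken by symbol from the deposited count table, which held all 10 among its 24421 entries, and all 10 were among the 13937 genes that passed the filter on low counts. The tibialis anterior, a muscle of the front of the lower hindlimb, was sequenced as mRNA in 12 libraries from male mice aged 4 months. Of these, 6 came from wild type mice of strain C57Bl/6 (WT) and 6 from mice whose strain is given as mdx/mTR. Mice with the mdx allele of Dmd lack functional dystrophin, which ties the fibre's cytoskeleton to its membrane, and mTR denotes the telomerase RNA gene Terc. Both alleles were present together in the 1 affected group, so their parts in any difference cannot be told apart. The labels name no treatment, and they do not give the generation of telomerase loss or say that numbered samples came from separate animals. The p-values therefore measure the spread between these samples, which may be technical.

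Insulin binding turns on the tyrosine kinase of its receptor, which phosphorylates the docking proteins IRS1 and IRS2. PI3K binds to them and makes the membrane lipid that recruits and activates AKT, and AKT phosphorylates the Rab GTPase-activating proteins TBC1D1 and TBC1D4, which otherwise hold vesicles that carry GLUT4 inside the fibre. In skeletal muscle, the main site of insulin-stimulated glucose disposal, GLUT4 is the transporter that moves to the surface after insulin or contraction, while GLUT1 sits at the surface of many cell types and serves basal uptake.

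Levels are given as CPM, counts brought to a common library size with factors from the trimmed mean of M-values (TMM), as the lowest, median and highest of the 6 libraries of a group or as mean ± SD. Changes are log2 fold changes of mdx/mTR over WT ± SE from edgeR's quasi-likelihood test, with p-values adjusted by Benjamini-Hochberg over all 13937 genes and a threshold of 0.05. The WT libraries held 36903560 to 40981012 counts and the mdx/mTR libraries 35136327 to 60330410. Dmd checked the labels: it fell from 237 ± 6.90 to 46.8 ± 7.20 CPM (log2 fold change -2.34 ± 0.09, edgeR adjusted p 8.3e-10), while Terc had 2 counts in all and was not tested. The tissue label was checked with 12 myofibre marker genes, which summed to 220700 to 247600 CPM in WT and 170000 to 231200 CPM in mdx/mTR. All 10 macrophage and all 8 fibroblast markers rose, from 92.7 to 159.7 CPM summed in WT to 271 to 761 CPM for the former and from 1109 to 2120 CPM to 2831 to 5779 CPM for the latter. Of 8 endothelial markers 6 fell (572 to 744 CPM summed in WT, 447 to 581 CPM in mdx/mTR), as did 5 of 6 Schwann and perineurial markers (51.1 to 63.8 CPM and 26.5 to 40.9 CPM). Of 8 markers of satellite cells and regenerating fibres 7 rose (52.9 to 64.8 CPM summed in WT, 161 to 597 CPM in mdx/mTR), and of 5 tested adipocyte markers 0 were called in edgeR (0 also at an unadjusted p under 0.05, while DESeq2 called 1 of 6 lower, Lep, which the edgeR filter left out). In whole muscle, fewer cells of a type and less RNA per cell cannot be told apart, and the part of these cell types in the values below was not tested. Over the 10 genes and 123 further pathway genes, WT replicate 2 was most often the highest or lowest library of its group (79 of 133 genes). It was followed by mdx/mTR replicate 5 (71) and mdx/mTR replicate 2 (59). Calls of the 10 genes that change without one of them are given both ways. Counts of called genes in the pathway lists also shift without them, and not all of these shifts are given.

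Of the 10 genes, 5 were lower in mdx/mTR (Insr, Irs1, Irs2, Tbc1d1 and Slc2a4), 0 were higher and 5 did not pass the threshold in edgeR. At an unadjusted p under 0.05, and in DESeq2, 1 gene was higher (Slc2a1) and the same 5 were lower. Among all tested genes 48.3% passed in either direction, 23.4% lower and 25.0% higher, and among these genes 5 of 10 passed. The median log2 fold change of the 10 genes was -0.34, and that of all tested genes was 0.01. The directions rest on the scaling of libraries, because TMM factors were 0.929 to 0.971 in WT and 0.988 to 1.16 in mdx/mTR. With library totals alone the median of all genes was 0.17, with 5596 genes higher and 1560 lower in place of 3479 and 3257, and 4 of the 10 genes were lower and 1 higher. With libraries scaled to the summed myofibre markers, an alternative chosen after seeing the data, the median of all genes was 0.25 (6154 higher, 898 lower), and 3 of the 10 genes were lower and 1 higher. Insr, Irs2 and Slc2a4 stayed lower under both scalings. The authors' deposited table has the same sign for all 10 genes and places 6 of them under an adjusted p of 0.05, the same 5 lower genes and Slc2a1.

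**Figure D1:**
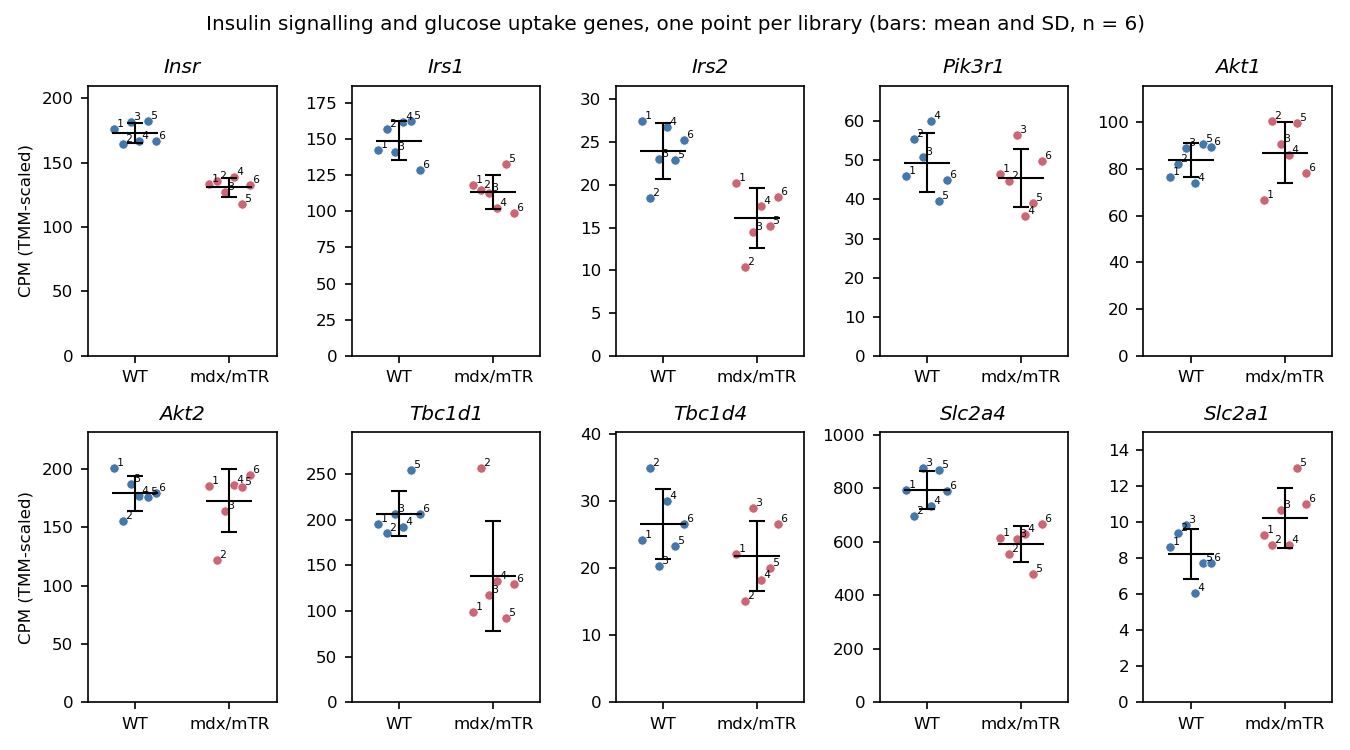
Scaled CPM (vertical axis, from 0) of the 10 genes in each of 6 WT (blue) and 6 mdx/mTR (red) libraries, labelled by replicate number, with the mean and SD as bars. The groups are separate for Insr and Slc2a4, and mdx/mTR replicate 2 lies at 256.9 CPM for Tbc1d1, far above the other libraries of its group.

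Insr encodes the insulin receptor and spans chr8:3122061-3279617 on the minus strand of GRCm38, the assembly that mm10 names. Its level was 164.6, 171 and 182 CPM (lowest, median and highest) in WT and 117.5, 133 and 138.5 CPM in mdx/mTR. All 6 mdx/mTR libraries lay below all 6 WT libraries. The mean was 75.7% of WT, a log2 fold change of -0.40 ± 0.05 (95% interval -0.51 to -0.30, edgeR adjusted p 2.7e-05). In all 22 alternatives the fall of Insr stayed past the threshold, with an adjusted p of at most 0.0451. Its size depended on the scaling, at -0.25 with library totals alone and -0.17 with the myofibre scaling (edgeR adjusted p 0.0451). Of all tested genes, 9.65% had a log2 fold change as low as that of Insr or lower. Groups that did not overlap were found for 2 of the 10 genes, Insr and Slc2a4, and for 25.2% of all tested genes.

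Irs1 (chr1:82233101-82291416, minus strand) encodes the docking protein that muscle uses most for metabolic insulin signalling. It had 128.8, 150, and 162 CPM in WT and 99.0, 114, and 133 CPM in mdx/mTR (lowest, median and highest), and 5 of 6 mdx/mTR libraries lay below all WT libraries. Its log2 fold change was -0.39 ± 0.08 (95% interval -0.56 to -0.23, edgeR adjusted p 0.00089). It missed the threshold in 1 of 22 alternatives, the scaling to myofibre markers (log2 fold change -0.15, edgeR adjusted p 0.281). In the GENCODE annotation 2822 of its 9144 exon bases overlap Gm9747 on the other strand, and no source states whether counting used strand, so reads of the pair may be mixed.

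Irs2 (chr8:10984681-11008458, minus strand) encodes the second docking protein, known for its rapid repression by insulin in liver. Its level was 18.5, 24.1 and 27.45 CPM in WT and 10.35, 16.4 and 20.2 CPM in mdx/mTR. The groups overlapped, with 4 of 6 mdx/mTR libraries below all WT libraries. Irs2 had the lowest mean relative to WT among the 3 genes of receptor and docking proteins, 67.1%, with a log2 fold change of -0.58 ± 0.14 (95% interval -0.88 to -0.28, edgeR adjusted p 0.0041). It passed in all 22 alternatives, with an adjusted p of at most 0.0238. Without mdx/mTR replicate 2, the lowest library, the log2 fold change was -0.47. Of its exon bases 162 overlap 9530052E02Rik on the other strand. Irs1 supplied 86.1% of the counts of the Irs1 and Irs2 pair in WT and 87.5% in mdx/mTR, and their log2 ratio did not pass the test of a difference (2.64 ± 0.28 and 2.84 ± 0.41, SD, n = 6 each, two-sided exact permutation test, p 0.344, adjusted over 4 ratios 0.459).

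The promoters of Irs1 and Irs2, the pair of docking genes that fell together, are shown here as the 250 bases before the RefSeq start (GRCm38.p6, chr1:82291440-82291689 for Irs1 and chr8:11008930-11009179 for Irs2, both minus strand). Capitals mark CACGTG, an E-box, and TGTTTTG, the core of the insulin response element described at genes that insulin represses.
Irs1: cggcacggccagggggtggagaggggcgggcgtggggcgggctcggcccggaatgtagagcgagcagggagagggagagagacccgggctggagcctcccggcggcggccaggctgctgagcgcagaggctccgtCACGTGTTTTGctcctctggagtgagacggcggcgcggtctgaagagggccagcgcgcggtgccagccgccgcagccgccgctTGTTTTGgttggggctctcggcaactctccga
Irs2: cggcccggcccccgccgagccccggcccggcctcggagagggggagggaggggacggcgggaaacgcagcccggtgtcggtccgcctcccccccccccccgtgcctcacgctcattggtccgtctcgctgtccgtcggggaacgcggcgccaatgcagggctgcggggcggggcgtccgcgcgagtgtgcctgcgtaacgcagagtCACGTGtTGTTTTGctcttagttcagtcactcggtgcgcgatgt
RefSeq promoters were found for 8 of the 10 genes, 14 promoters in all, and 7 motifs were searched on both strands of 32851 mouse promoters. CACGTG occurs in 6.02% of all promoters and TGTTTTG in 5.56%, and among the 8 matched genes each occurs in Irs1 and Irs2. Both words occur together in 97 promoters (0.295%). In Irs1, CACGTG starts 115 bases before the start and overlaps a TGTTTTG that starts at 111, and another TGTTTTG starts at 32. In Irs2, CACGTG starts at 44 and TGTTTTG at 37. A TGTTTTG on the gene's strand, starting within 13 bases after the first base of CACGTG, is found in 3 promoters in all. Of these, 2 are the promoters of Irs1 and Irs2. This window was chosen after these sequences were seen. The mirrored arrangement on the other strand was not counted, so the count holds for the gene's strand alone. The FoxO core TGTTTAC (3.17% of all promoters) was found for Akt1 alone, the MEF2 word CTANNNNTAG (3.20%) for 0 of the 8 genes, the general E-box CANNTG (66.2%), which contains CACGTG, for 6, the GC box GGGCGG (32.7%) for all 8, and TATAAA (12.4%) for Pik3r1. These matches describe the letters of the windows and show no binding.

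Between the docking proteins and the Rab regulators, Pik3r1, Akt1 and Akt2 did not pass the threshold. Pik3r1 (chr13:101680563-101768217, minus strand), which encodes the p85 and shorter regulatory subunits of PI3K, had 39.55, 48.4 and 60.02 CPM in WT and 35.7, 45.6 and 56.5 CPM in mdx/mTR. The ranges lay over each other, and the log2 fold change was -0.12 ± 0.12 (95% interval -0.37 to 0.12, edgeR adjusted p 0.397). Akt1 (chr12:112653821-112674884, minus strand), the AKT kinase of growth and survival signals, had 73.97, 85.6 and 90.8 CPM in WT and 66.6, 88.3 and 100.4 CPM in mdx/mTR. Its mdx/mTR libraries reached both lower and higher than WT, with a log2 fold change of 0.05 ± 0.09 (95% interval -0.15 to 0.26, edgeR adjusted p 0.66).

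Akt2 (chr7:27591552-27640826, plus strand) encodes the AKT kinase best known for insulin-stimulated glucose uptake. It had 155.2, 178 and 201 CPM in WT and 122.5, 185.0 and 195 CPM in mdx/mTR, with 1 library, mdx/mTR replicate 2, below the rest of its group (163.8 to 195 CPM). The log2 fold change of Akt2 was -0.05 ± 0.10 (95% interval -0.27 to 0.16, edgeR adjusted p 0.687), 0.03 without that library, and above 0 with library totals alone (0.10) and with the myofibre scaling (0.18). The intervals of Pik3r1, Akt1 and Akt2 leave room for changes of up to 0.37 on the log2 scale, so a small difference was not detectable. Of the 50-base stretches of Akt2 transcripts, 15.95% also occur in other genes, chiefly the pseudogene Akt2-ps, which makes its level less certain. Akt1 took 31.9% of the counts of the Akt1 and Akt2 pair in WT and 33.7% in mdx/mTR, and the log2 ratio did not pass (-1.10 ± 0.19 and -0.99 ± 0.42, SD, n = 6 each, two-sided exact permutation test, p 0.617, adjusted over 4 ratios 0.617).

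The pair of Rab regulators differed in how their libraries spread. Tbc1d1 (chr5:64156305-64351486, plus strand) encodes the Rab GTPase-activating protein that is the main form in fast muscle and is phosphorylated by AMPK as well as AKT. It had 185.9, 200.9 and 254.1 CPM in WT and 92.7, 124, and 256.9 CPM in mdx/mTR. Of the mdx/mTR libraries, 5 lay below all WT libraries and 1, replicate 2, lay above them. Tbc1d1 averaged 66.9% of WT with a log2 fold change of -0.58 ± 0.20 (95% interval -1.02 to -0.14, edgeR adjusted p 0.030).

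Without mdx/mTR replicate 2 the log2 fold change of Tbc1d1 was -0.85 (edgeR adjusted p 5.25e-05). Tbc1d1 lost its call without WT replicate 5 or without any 1 of mdx/mTR replicates 1, 3, 4, 5 and 6 (edgeR adjusted p up to 0.0679), and with library totals alone or the myofibre scaling (up to 0.227). Tbc1d4 (chr14:101442360-101609191, minus strand), also called AS160, is the AKT substrate through which insulin frees GLUT4 vesicles. Its level was 20.4, 25.4 and 34.95 CPM in WT and 15.1, 21.0 and 29.0 CPM in mdx/mTR, in overlapping ranges. The log2 fold change of Tbc1d4 was -0.29 ± 0.16 (95% interval -0.63 to 0.05, edgeR adjusted p 0.149). Tbc1d1 took 88.5% of the pair's counts in WT and 85.0% in mdx/mTR, and the log2 ratio did not pass (2.97 ± 0.39 and 2.61 ± 0.78, SD, n = 6 each, two-sided exact permutation test, p 0.325, adjusted over 4 ratios 0.459). Without mdx/mTR replicate 2, whose ratio was 4.09, the difference of this ratio was -0.66 (exact permutation test, adjusted p 0.0346).

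The transporter genes moved apart. Slc2a4 (chr11:69942539-69948188, minus strand), the gene of GLUT4, had 695.7, 790.0 and 876 CPM in WT and 478.6, 611 and 664 CPM in mdx/mTR. The lowest WT library was above the highest mdx/mTR library. Slc2a4 had a mean of 792 ± 71.3 CPM over the WT libraries (SD, n = 6) and of 592 ± 65.7 CPM over the mdx/mTR libraries (SD, n = 6), 74.7% of WT, with a log2 fold change of -0.42 ± 0.08 (95% interval -0.60 to -0.24, edgeR adjusted p 0.00098). It passed in all 22 alternatives, with an adjusted p of at most 0.0205. The median log2 fold change of the 12 myofibre markers was -0.18, with 2 of them lower (Myh4 and Tnnc2) and 1 higher (Mylpf) in edgeR. At an unadjusted p under 0.05, 4 of the 12 were lower and 1 higher, and in DESeq2 6 were lower and 1 higher. Their part in the fall of Slc2a4 was not tested.

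Slc2a1 (chr4:119108711-119137983, plus strand), the gene of GLUT1, is known in endothelial cells and perineurial cells as well as in fibres. It had 6.10, 8.18 and 9.88 CPM in WT and 8.75, 10.01 and 13.04 CPM in mdx/mTR. Of the mdx/mTR libraries, 3 lay above all WT libraries. The log2 fold change of Slc2a1 was 0.32 ± 0.13 (95% interval 0.05 to 0.58) with an edgeR adjusted p of 0.0503, just short of the threshold. It passed in 11 of 22 alternatives, among them those without WT replicate 2 and without mdx/mTR replicate 2, DESeq2 (adjusted p 0.0457) and library totals alone (edgeR adjusted p 0.0115), and the authors' deposited table gives 0.30 with an adjusted p of 0.0387. Markers of these other cells were not called higher in edgeR: 0 of 8 endothelial and 0 of 6 Schwann and perineurial markers were (also 0 at an unadjusted p under 0.05 and in DESeq2). Of 6 red cell markers 2 were tested and 0 called (1 lower at an unadjusted p under 0.05, 0 in DESeq2), while Hbb-bs, Hbb-bt, Hba-a1 and Hba-a2 are listed at 0 in every library. Markers that rose in the same libraries were those of macrophages (10 of 10), fibroblasts (8 of 8) and satellite cells or regenerating fibres (7 of 8), and the part of any of these cells in the level of Slc2a1 was not tested. Of the exon bases of Slc2a1, 105 overlap Gm12868 on the other strand.

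A ratio of the transporter counts within a library does not depend on the scaling of libraries. The log2 ratio of Slc2a1 to Slc2a4 lay between -6.91 and -6.21 in WT libraries and between -6.17 and -5.20 in mdx/mTR libraries, so all 6 mdx/mTR libraries lay above all 6 WT libraries. The means were -6.60 ± 0.25 and -5.86 ± 0.34 (SD, n = 6 each), a difference of 0.74 (two-sided exact permutation test, p 0.00216, the smallest this design allows, adjusted over 4 ratios 0.00866). Slc2a1 made up 1.03% of the counts of the pair in WT and 1.74% in mdx/mTR. Without mdx/mTR replicate 5, the highest library, the difference was 0.61.

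**Figure D2:**
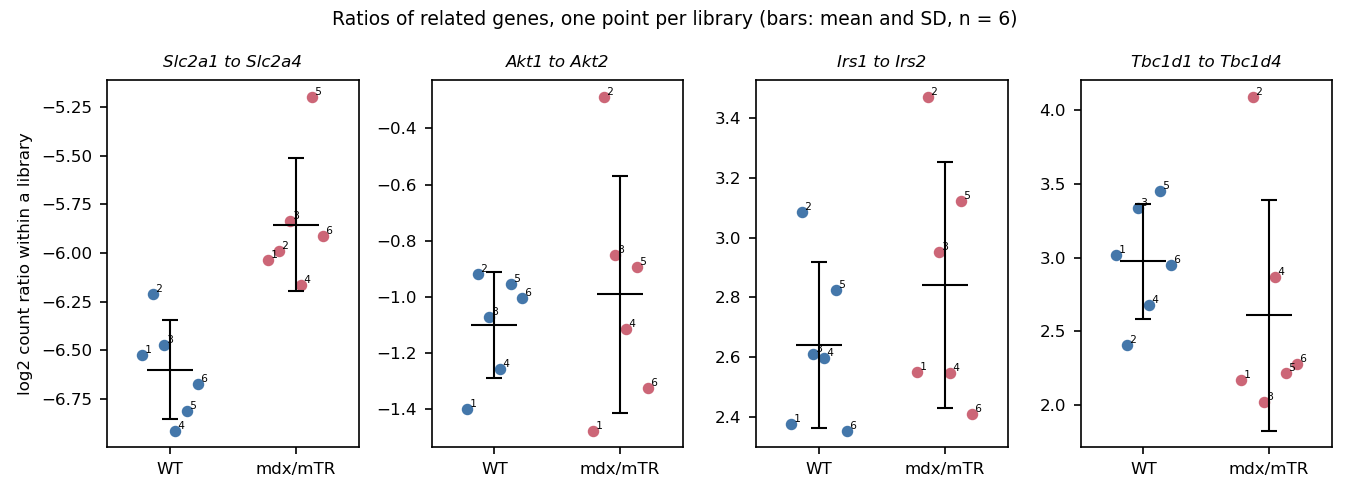
Log2 ratio of counts of 4 gene pairs within each library (vertical axes, each with its own range), with the mean and SD of 6 WT (blue) and 6 mdx/mTR (red) libraries. The ratio of Slc2a1 to Slc2a4 is separate between the groups (up to -6.21 in WT and from -6.17 in mdx/mTR), while mdx/mTR replicate 2 is the highest library of its group for each of the other 3 ratios.

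**Figure D3:**
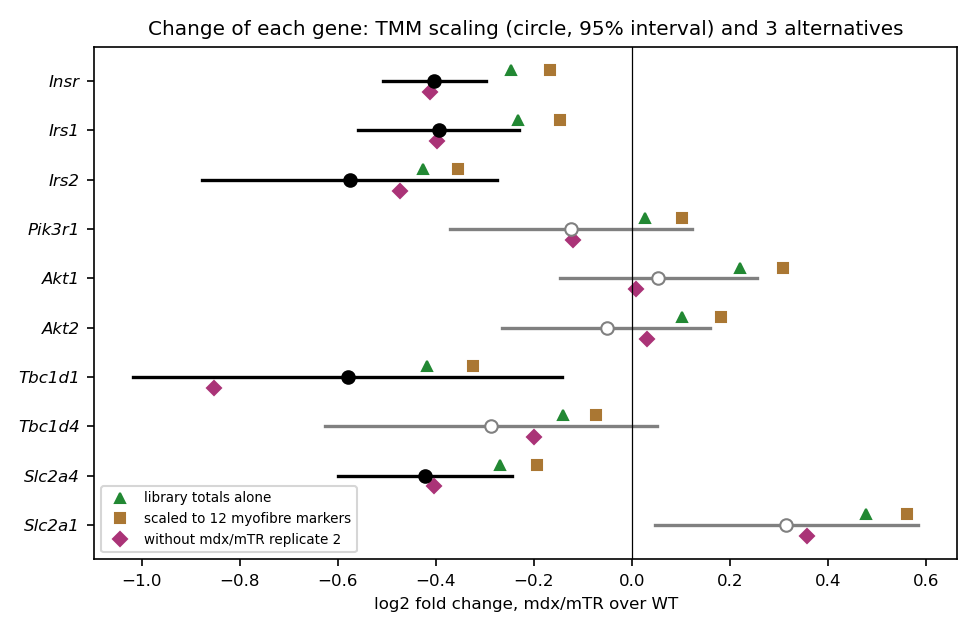
Log2 fold change of each gene with TMM scaling (circles, filled where the edgeR adjusted p is under 0.05, lines for 95% intervals) and under 3 alternatives (triangles, squares and diamonds). Both other scalings move every gene upward, and of the 10 genes Tbc1d1 moves most without mdx/mTR replicate 2, from -0.58 to -0.85.

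Levels of different genes were compared per kilobase of merged exons. In WT, Slc2a4 was the most abundant of the 10 at 282 CPM per kb (248 to 312), far above Akt2 (37.15), Tbc1d1 (31.3) and Akt1 (31.1), whose ranges overlap one another. Insr (18.5) and Irs1 (16.3) came next, also with touching ranges, followed by Pik3r1 (6.54), whose lowest library just met the highest of Tbc1d4, and then by Tbc1d4 (3.98), Irs2 (3.79) and Slc2a1 (2.53), with Irs2 overlapping both of its neighbours. In mdx/mTR the order at the top was Slc2a4 (211 CPM per kb), Akt2 (35.8), Akt1 (32.3) and Tbc1d1 (20.9), and at the bottom Slc2a1 (3.15) stood above Irs2 (2.54), with overlapping ranges in both groups.

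Within families, Slc2a4 made up 93.8% of the summed per-kb level of 9 glucose transporter genes in WT and 91.5% in mdx/mTR, and Slc2a1 0.843% and 1.39%. Among regulatory subunit genes of PI3K, Pik3r1 took 38.6% in WT and 34.5% in mdx/mTR, below Pik3r2 at 44.25% and 46.2%, and Pik3r5 went from 2.02% to 6.43%. These shares are descriptions and were not tested.

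**Figure D4:**
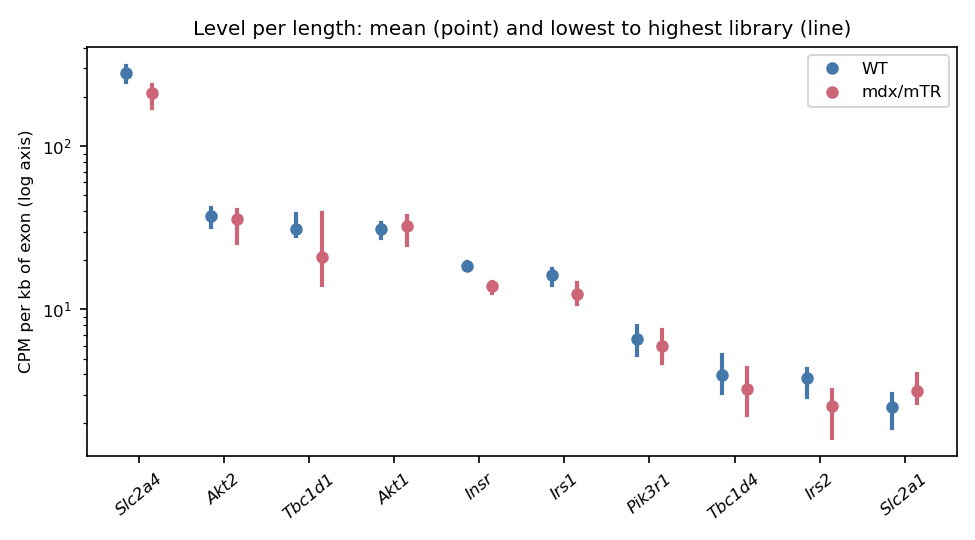
CPM per kb of merged exons (log axis) of the 10 genes, ordered by their WT mean, for WT (blue) and mdx/mTR (red), with points for means and lines from the lowest to the highest of 6 libraries. Slc2a4 stands at 282 CPM per kb in WT and 211 in mdx/mTR, above the other 9 genes in both groups.

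The genes whose libraries varied most like those of Slc2a4 were sought among 9508 genes with a mean of at least 5 CPM, by the Pearson correlation of deviations from the group means over the 12 libraries. They were Pfkm, the muscle phosphofructokinase gene (r 0.944), Fem1a (0.941), Prkaa2, which encodes the catalytic AMPK subunit of muscle (0.934), Atp11a (0.934) and Nfe2l1 (0.932), with Spearman's rho of 0.825 to 0.937. The points of each correlation share library depth and composition, and these 5 were the highest of many. Of the 5, Fem1a (log2 fold change -0.37), Nfe2l1 (-0.26), Atp11a (-0.24) and Prkaa2 (-0.21) were also lower in mdx/mTR, and Pfkm was at -0.11 (edgeR adjusted p 0.28).

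The rest of the pathway was read from 7 lists with 128 genes, of which 123 were tested: 28 were higher, 34 lower and 61 not called, so that 50.4% passed against 48.3% of all genes. Their median log2 fold change was -0.03. With TMM, 25.0% of all tested genes were higher and 23.4% lower. With library totals alone 50 pathway genes were higher and 15 lower, where all tested genes had 5596 and 1560. With the myofibre scaling 54 were higher and 5 lower, where all tested genes had 6154 and 898. The balance of directions in a list is therefore read with the scaling and these counts beside it.

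Of 20 genes that join or dampen the receptor signal, 8 rose, 3 fell and 9 did not pass, 55.0% called against 48.3% of all genes. Their median log2 fold change was 0.15. With library totals alone 14 rose and 1 fell, and with the myofibre scaling 15 and 0. Grb10, an adaptor that binds the receptor and restrains it, rose from 57.2 to 91.1 CPM (log2 fold change 0.67 ± 0.18, edgeR adjusted p 0.0075). Ptpn2, a tyrosine phosphatase that acts on the receptor, rose from 16.2 to 22.8 CPM (0.50 ± 0.08, edgeR adjusted p 0.00019), and the adaptor Shc1 rose from 16.7 to 22.1 CPM (0.40 ± 0.07, edgeR adjusted p 0.00062). Ptpn1, the phosphatase best known for switching off the receptor, had a log2 fold change of 0.15 ± 0.08 (edgeR adjusted p 0.14), but passed at 0.31 where libraries were scaled to their totals (edgeR adjusted p 0.0162) and at 0.40 under the myofibre scaling (edgeR adjusted p 0.0143). Sos1, which couples the receptor to Ras, fell from 51.9 to 40.2 CPM (-0.37 ± 0.05, edgeR adjusted p 5.7e-05) but missed the threshold with the myofibre scaling (edgeR adjusted p 0.101). Socs3, a suppressor of cytokine signalling that also binds the receptor, was chosen after its values were seen and rose from 5.02 to 18.65 CPM (edgeR adjusted p 0.00112). Macrophage and fibroblast markers rose in the same libraries, and their part in these rises was not tested.

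Of 20 genes of the PI3K and AKT core, 3 rose, 8 fell and 9 did not pass, 55.0% called against 48.3% of all genes. Their median log2 fold change was -0.08, but 5 rose and 2 fell with library totals alone and 5 and 1 with the myofibre scaling. The 3 that rose were Pik3r5, Pik3cg and Inpp5d. Pik3r5 went from 1.49 to 5.02 CPM (log2 fold change 1.75 ± 0.27, edgeR adjusted p 0.00017). Pik3cg went from 1.79 to 3.93 CPM (1.13 ± 0.19, edgeR adjusted p 0.00033). They encode the regulatory and catalytic subunits of the same PI3K. Inpp5d, a lipid phosphatase gene, rose from 5.42 to 11.3 CPM. Another catalytic subunit gene, Pik3cd, went the other way, from 30.05 to 19.8 CPM (-0.60 ± 0.11, edgeR adjusted p 0.00049). Inpp5d and Pik3cd are named here after their values were seen. The 10 macrophage markers rose in the same libraries (median log2 fold change 1.80), and their part in these changes was not tested. Pik3ca, the catalytic subunit that insulin uses in muscle, went from 107 to 97.2 CPM (-0.14 ± 0.04, edgeR adjusted p 0.017), a call lost with upper quartile scaling (edgeR adjusted p 0.0622) and a direction that turned with library totals alone (0.01) and the myofibre scaling (0.10). Mapkap1, a subunit of the mTORC2 kinase that phosphorylates AKT, fell from 55.1 to 45.4 CPM (-0.28 ± 0.05, edgeR adjusted p 0.00039), a call lost with the myofibre scaling (edgeR adjusted p 0.626).

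Among 15 genes downstream of AKT, 8 fell, 1 rose and 6 did not pass, with a median log2 fold change of -0.20. This balance depended on the scaling, with 4 lower and 3 higher with library totals alone and 0 lower and 3 higher with the myofibre scaling. Tsc2, the brake on mTORC1 that AKT releases, fell from 146 to 117 CPM (-0.31 ± 0.04, edgeR adjusted p 5.5e-05). Rheb, the GTPase that TSC2 holds in check, fell from 71.1 to 56.4 CPM (-0.33 ± 0.06, edgeR adjusted p 0.00035), and Mdm2, another AKT substrate, from 76.0 to 63.0 CPM (-0.27 ± 0.06, edgeR adjusted p 0.0017). All 3 missed the threshold with the myofibre scaling (edgeR adjusted p 0.211 to 0.619).

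GLUT4 vesicle genes went both ways. Of 26 tested, 6 rose, 7 fell and 13 did not pass (12 and 5 with library totals alone, 14 and 2 with the myofibre scaling), with a median log2 fold change of -0.01. Lnpep, the insulin-regulated aminopeptidase that travels in the same vesicles as GLUT4, rose from 36.5 to 60.5 CPM (0.73 ± 0.07, edgeR adjusted p 4.1e-06), opposite in direction to Slc2a4. Myo5a, a motor that carries such vesicles along actin, rose from 11.2 to 36.4 CPM (1.70 ± 0.16, edgeR adjusted p 3.4e-06). Both rises passed in all 22 alternatives. Ralgapb, a subunit of the GTPase-activating complex that restrains RalA, fell from 98.0 to 78.4 CPM (-0.32 ± 0.04, edgeR adjusted p 3.5e-05), a call lost with the myofibre scaling (edgeR adjusted p 0.243). Named after their values were seen, Rab10 fell from 506 to 395 CPM (edgeR adjusted p 0.00038) and Sort1, which sorts GLUT4 into its vesicles, from 173 to 124 CPM (edgeR adjusted p 0.00141), while Pak1, a kinase of the RAC1 branch, rose from 34.6 to 73.3 CPM (edgeR adjusted p 8e-05).

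**Figure D5:**
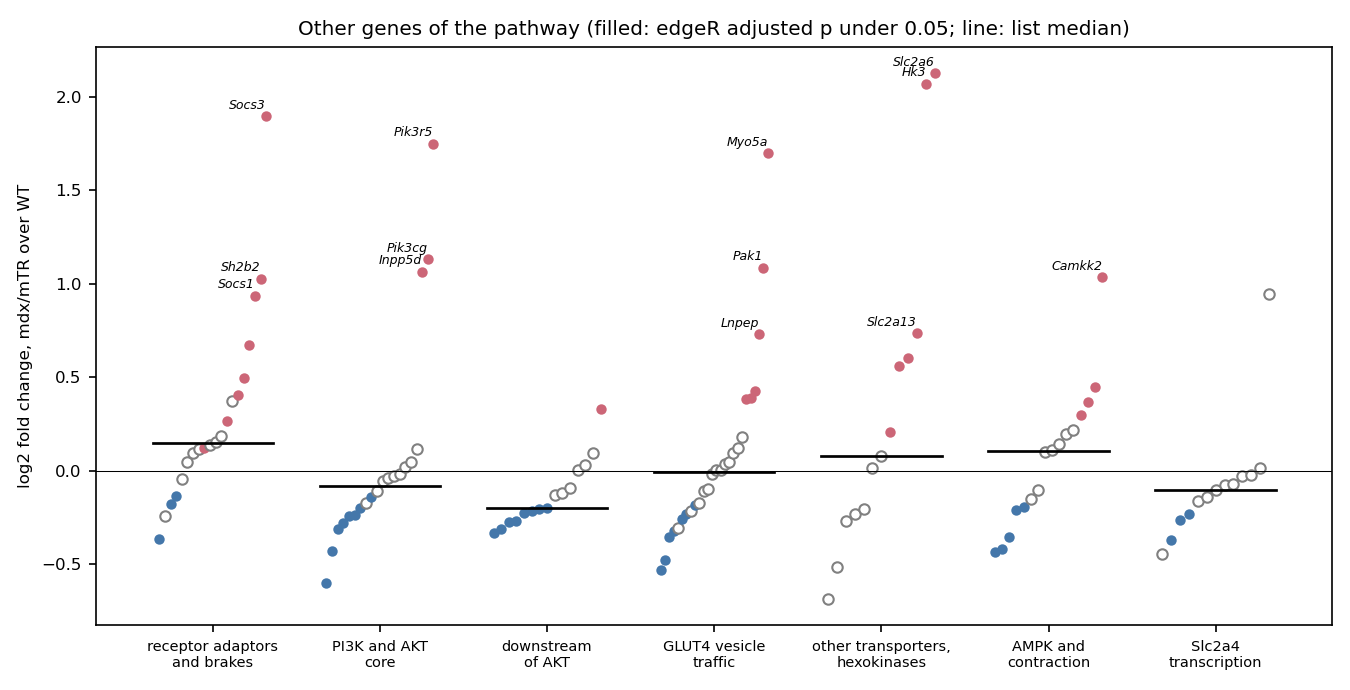
Log2 fold change (vertical axis) of the 123 tested genes of the 7 pathway lists with TMM scaling, with each list's median as a line. Filled points passed the threshold (red higher, blue lower), and the genes with the largest called changes are named, such as Pik3r5 at 1.75 and Myo5a at 1.70.

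Of 13 other transporter and glucose trapping genes tested, 6 rose, 0 fell and 7 did not pass in edgeR, 46.15% called against 48.3% of all genes. The counts were the same with library totals alone and with the myofibre scaling (with TMM, 2 lower at an unadjusted p under 0.05, and 5 higher and 0 lower in DESeq2). With 1 library left out 4 to 6 were higher and 0 to 2 lower, with 5 higher and 2 lower without mdx/mTR replicate 2, 6 and 1 without WT replicate 2, and 4 and 0 without mdx/mTR replicate 5. Those that rose were low ones: Slc2a6 rose from 0.302 to 1.34 CPM (2.13 ± 0.35, edgeR adjusted p 0.00025), Hk3, a hexokinase of white blood cells, from 0.670 to 2.83 CPM (2.07 ± 0.44, edgeR adjusted p 0.0016), and Slc2a13 from 0.843 to 1.40 CPM (0.73 ± 0.15, edgeR adjusted p 0.0012), with Slc2a8, Slc2a9 and Hk1, named after their values were seen, as the others. Hk2, the hexokinase that traps glucose in muscle, had means of 542 (WT) and 450 (mdx/mTR) CPM (-0.27 ± 0.17, edgeR adjusted p 0.20). Without mdx/mTR replicate 2 its log2 fold change was -0.48 (edgeR adjusted p 0.00111). Slc2a3 (-0.52 ± 0.26, edgeR adjusted p 0.11) and Txnip, whose product limits glucose uptake (-0.23 ± 0.11, edgeR adjusted p 0.10), did not pass. The log2 fold change of Txnip was -0.29 without WT replicate 6, where it passed (edgeR adjusted p 0.0406), and -0.15 without WT replicate 2 (edgeR adjusted p 0.226).

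The AMPK and contraction branch, which reaches TBC1D1 without insulin, had 4 of 16 genes higher, 5 lower and 7 not called. Of these 16, 56.25% were called against 48.3% of all genes. With library totals alone 8 were higher and 3 lower, and with the myofibre scaling 9 and 2. Prkab2, the AMPK beta subunit of muscle, fell from 721 to 533 CPM (-0.44 ± 0.09, edgeR adjusted p 0.00093), and this fall passed in all 22 alternatives. Camkk2, a kinase upstream of AMPK, rose from 5.80 to 11.9 CPM (1.03 ± 0.14, edgeR adjusted p 5.1e-05), and Sesn1, a stress-induced regulator, from 27.4 to 37.3 CPM (0.45 ± 0.08, edgeR adjusted p 0.00037). Prkag3, the gamma subunit of fast muscle, had a log2 fold change of 0.22 ± 0.17 (edgeR adjusted p 0.30), 0.34 without mdx/mTR replicate 2 (edgeR adjusted p 0.0352) and 0.44 with the myofibre scaling (edgeR adjusted p 0.0213).

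Of 13 genes listed for Slc2a4 transcription, 3 fell, 0 rose and 10 did not pass in edgeR (4 lower and 0 higher at an unadjusted p under 0.05 and in DESeq2), 23.1% called against 48.3% of all genes. Mef2d fell from 175 to 145.5 CPM (-0.26 ± 0.05, edgeR adjusted p 0.00076) and Mef2a, whose product binds the Slc2a4 promoter, from 246 to 210.1 CPM (-0.23 ± 0.05, edgeR adjusted p 0.0018). Slc2a4rg-ps, a pseudogene by its symbol and not known to act on Slc2a4, fell from 4.61 to 3.57 CPM (-0.37 ± 0.12, edgeR adjusted p 0.020). All 3 calls were lost with library totals alone and with the myofibre scaling, under which Mef2a stood at 0.01, and each of these settings placed 2 other genes of the list higher.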

How the data were processed

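Messenger RNA of tibialis anterior was counted in 6 WT and 6 mdx/mTR libraries, grouped by the labels. The authors deposited whole-number counts per gene symbol, 1 column per library (0 columns unmatched). The submitters' processing notes name FastQC, STAR, DESeq2 and build mm10, with no versions. The counter, annotation and strand handling are not given in the sources used here. Their other file, the authors' deposited table of results, has columns, per the file headers, for the mean signal, the log2 fold change (mdx/mTR over WT) and its SE, the score of the test, and raw and adjusted p-values.

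The 10 genes, the pathway and marker lists and the tests were chosen with earlier results of these data known. Named pathway genes are the 3 smallest p-values of each list and Hk2, Prkag3, Pik3ca, Ptpn1, Grb10, Txnip, Slc2a3 and Lnpep. Others are said to be chosen after their values were seen. Stxbp3a and Trarg1 are second symbols of listed genes and not in the table, and Slc2a5, Slc5a1 and Slc5a2 did not pass the filter.

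Counts as deposited were tested with edgeR 4.0.16 in R 4.3.3 (filterByExpr, TMM, glmQLFit, glmQLFTest, group alone). The common biological coefficient of variation was 14.5%. The SE is the size of the log2 fold change divided by the square root of F. Ratios were tested with exact permutation in scipy 1.17.1 (Python 3.11.15, pandas 2.3.3). On counts simulated for the 13937 genes, the test recovered 54% of 100 genes changed by 0.5 on the log2 scale and 88% of 100 changed by 1, with 8 false calls. Only these genes were changed there, while 48.3% of genes were called in the data. The adjusted p depends on that share, so these rates may not hold for the data. Replicate pairs differed by more than sampling noise (chi-square per degree of freedom 9.20 to 124, 30 pairs), so none was counted as a duplicate. Reads were not counted by molecular identifiers as far as the sources say. Exon lengths, positions and overlaps came from GENCODE M21 (GRCm38) and promoters from RefSeq GRCm38.p6.

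The 22 alternatives were other scalings and filters, DESeq2 1.42.0, limma-voom (limma 3.58.1), a replicate block, each library left out, a threshold of 0.01, and scaling to 12 myofibre markers.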

Additional observations from a re-analysis of the deposited data

Results flagged for a closer look

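Of 84 groups of 6 libraries examined for a single library far from the others (gap to the nearest library over the whole range above 0.625), 7 had one, where chance gives about 4.2. In WT, Tbc1d1 was at 254.1 CPM in replicate 5 while the remaining WT libraries had 185.9 to 206 CPM. In mdx/mTR replicate 2, Tbc1d1 reached 256.9 CPM where its group otherwise had 92.7 to 133 CPM, and Hk2 was at 755.7 CPM against 318 to 439 CPM. The remaining 4 were in mdx/mTR replicate 5. There Txnip was lowest at 602.5 CPM against 752.0 to 826.5 CPM, Shc1 was highest at 27.2 CPM against 20.7 to 22.1 CPM, and Pik3r5 was highest at 9.93 CPM against 2.75 to 4.96 CPM. The log2 ratio of Slc2a1 to Slc2a4 was -5.20 in that library and -6.17 to -5.83 in the others.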

How the results depend on the processing

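The 10 genes gave 220 values under 22 alternatives each: 194 kept direction and side of the threshold, 10 lost the call (9 of Tbc1d1, 1 of Irs1), 11 gained it (all of Slc2a1) and 5 turned direction. The number of the 10 genes called lower was 5, 4 to 5 with 1 library left out and 3 with the myofibre scaling. The number called in either direction was 4 to 6 with 1 library left out, and for the 123 pathway genes 55 to 65. Directions that turned were those of Pik3r1 with library totals alone (0.026) and the myofibre scaling (0.101), Akt2 under the same settings (0.103 and 0.181) and without mdx/mTR replicate 2 (-0.092 to 0.030 over the libraries left out), Pik3ca with library totals alone (0.014) and the myofibre scaling (0.095), and Mef2a with the myofibre scaling (0.006). The shift of all genes under these scalings (0.169 and 0.25) is larger than each of these changes from 0, and for the library left out the cause was not tested.

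With 1 library left out, the difference in log2 ratio ran from 0.611 to 0.821 for Slc2a1 to Slc2a4, from -0.032 to 0.206 for Akt1 to Akt2, from 0.075 to 0.289 for Irs1 to Irs2 and from -0.662 to -0.248 for Tbc1d1 to Tbc1d4. Same-numbered libraries of the groups deviated together in 2 of 6 pairs, replicates 1 (correlation over genes 0.334) and 2 (0.27). The other pairs lay between -0.139 and -0.0191. The labels name no batch or pairing, so what same-numbered libraries share is not known. With the numbers as a replicate block, 6 of the 10 genes and 63 pathway genes were called, the other transporter and trapping genes had 4 higher and 2 lower in place of 6 and 0, Slc2a3 passed (log2 fold change -0.53, edgeR adjusted p 0.0352), and the Slc2a1 to Slc2a4 difference was 0.743 with an adjusted p of 0.125 (exact permutation of signs, whose smallest raw p over 6 pairs is 0.03125). Of 615 values of the named pathway genes, 591 kept direction and call, 14 lost the call, 7 gained it and 3 turned direction.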

Other observations

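In mdx/mTR replicate 2 several genes of glucose handling stood at the edge of their group, and these genes were chosen after their values were seen. Besides Tbc1d1 and Hk2, the nuclear receptor gene Nr4a3, known to rise after exercise, was high there at 67.4 CPM, while the group's other 5 libraries had 4.68 to 16.25 CPM and WT had 3.52 to 30.1 CPM. The same library had the lowest Irs2 of its group (10.35 against 14.5 to 20.2 CPM), the lowest Akt2 (122.5 against 163.8 to 195 CPM), the lowest Tbc1d4 (15.1 against 18.25 to 29.0 CPM) and the lowest Prkag3 (114 against 165 to 273 CPM). Nr4a1 (73.15 against 121 to 166 CPM), Klf15 (32.8 against 39.1 to 76.4 CPM) and Foxo4 (161 against 203 to 271 CPM) were lowest there too. Insr, Irs1 and Slc2a4 in that library were neither the highest nor the lowest of the group. Its summed endothelial markers were the highest of the group (580.9 against 447 to 529 CPM), while its myofibre markers (183400 against 170000 to 231200 CPM) and macrophage markers (513 against 271 to 761 CPM) lay inside the range.

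Of the 10 genes, WT replicate 2 had the lowest WT level of 5, and mdx/mTR replicate 2 the lowest of its group for 4.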
